A study of Mus musculus with 6 samples.

Results

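Alg8, B4galnt4 and Tpst2 encode enzymes that modify secreted and membrane proteins in the endoplasmic reticulum and the Golgi apparatus. They are 3 of the 202 genes with a listed change of isoform usage, and 5 of the 302 listed isoforms are theirs. They were chosen by gene name from genes already known to have such a change, so the usage values and q-values below describe how they were picked and are not a test of them. The material was duodenal crypt organoids from wild-type C57BL/6 mice, cultures of small intestinal epithelium grown from crypts. On day 6 they received vehicle or 100 ng/ml BMP2, a bone morphogenetic protein that cells secrete as a signal, for 24 h. There were 3 RNA sequencing libraries in vehicle and 3 in BMP2, and the labels do not say whether these were separate cultures or animals. All values are means per condition, so none carries a standard deviation, and how deeply the libraries were sequenced is unknown.

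N-glycosylation begins on the membrane of the endoplasmic reticulum, where a sugar chain is built on the lipid dolichol and then moved as a block to asparagine residues of new proteins. Alg8 adds the second glucose to this lipid-linked chain, a late step before the transfer. In the Golgi the chains are trimmed and capped, and B4galnt4 adds N-acetylgalactosamine to terminal N-acetylglucosamine, which makes the cap called LacdiNAc. Tpst2 acts on the protein itself and moves sulfate from the donor PAPS to tyrosine residues in the trans-Golgi. In the intestine such modifications are carried by the brush border enzymes, receptors and mucins of the epithelium.

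Among the listed isoforms, usage moved toward the protein-coding one in Alg8 and away from it in B4galnt4. In the authors' deposited table the protein-coding Alg8-201 rose from 75.9% to 98.3% of the gene's transcripts. Alg8-204, of the annotated retained-intron class, fell from 19.3% to a listed 0 (authors' deposited table). The protein-coding B4galnt4-201 fell from 73.8% to 39.9% (authors' deposited table), and B4galnt4-202, of the same retained-intron class, rose from 10.2% to 35.0%. Both are called intron-retaining below after this class. Only B4galnt4-202 holds a whole intron of the listed protein-coding isoform, while Alg8-204 starts inside one and holds only its end. The listed Tpst2 isoform rose from 47.4% to 72.0% (authors' deposited table). Gene levels, implied from these values and not tested, were about 10.3-fold lower in BMP2 for Alg8, 2.23-fold lower for B4galnt4 and 1.12-fold higher for Tpst2.

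The stretches that set the intron-retaining isoforms apart are shown because they hold all the bases that Alg8-204 and B4galnt4-202 have and the listed protein-coding isoforms lack. They were cut from the GENCODE M21 transcripts (GRCm38, plus strand). Capitals mark bases that are intronic in the listed protein-coding isoform, and lower case marks coding exon. Alg8-204 is shown from its first base, at chr7:97386637-97386825, and B4galnt4-202 at chr7:141064708-141064830.
Alg8-204: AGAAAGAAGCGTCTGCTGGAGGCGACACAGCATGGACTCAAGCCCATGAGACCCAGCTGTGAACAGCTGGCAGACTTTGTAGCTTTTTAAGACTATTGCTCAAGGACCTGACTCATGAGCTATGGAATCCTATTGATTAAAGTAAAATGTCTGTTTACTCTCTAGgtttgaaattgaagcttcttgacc
B4galnt4-202: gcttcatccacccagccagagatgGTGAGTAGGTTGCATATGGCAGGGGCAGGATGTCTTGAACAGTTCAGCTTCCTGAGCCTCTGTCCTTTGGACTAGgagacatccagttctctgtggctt

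Both stretches end in AG, and the B4galnt4 stretch opens with GT, the usual ends of an intron. The B4galnt4 intron is short, at 75 bases, and B4galnt4-202 holds all of it. Alg8-204 holds only the last 165 of the 2995 bases of its intron, since the annotated transcript starts inside it. Read on in the frame of B4galnt4-201, the retained intron has a TAG stop codon at its bases 6 to 8. Read back from exon 9 in the frame of Alg8-201, the Alg8 stretch has a TAA stop codon that ends 25 bases before the exon, and an ATG in the same frame that ends 16 bases before it. No coding sequence is annotated for either intron-retaining isoform, and no protein was measured.

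**Figure D1:**
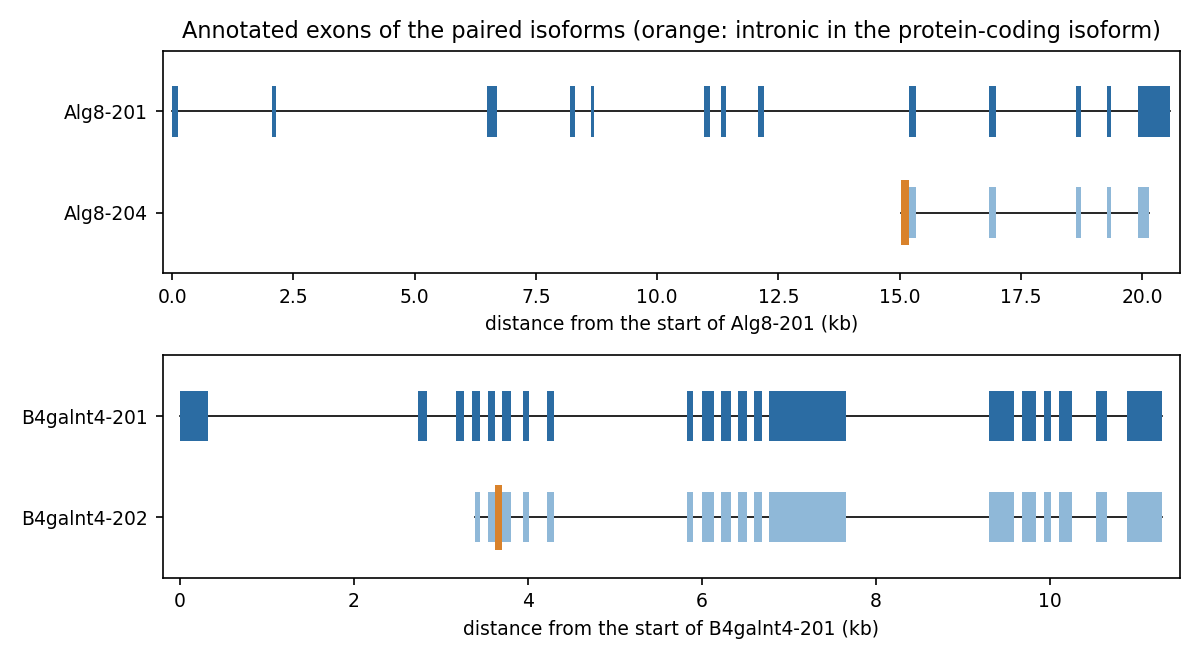
Annotated exons (boxes) and introns (lines) of the paired isoforms of Alg8 and B4galnt4, drawn to scale by distance from the start of the listed protein-coding isoform in kb. Orange marks the 165 bases of Alg8-204 and the 75 bases of B4galnt4-202 that are intronic in the listed protein-coding isoform, and both intron-retaining isoforms lack its first exon.

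Alg8 (ENSMUSG00000035704.18) lies on chromosome 7 from 97371606 to 97392185, plus strand, GRCm38. The annotation holds 6 transcripts there, 1 of them protein-coding and 3 of the retained-intron class. Alg8-201 has 13 exons, 2039 bases and 1578 coding bases. Alg8-204 has 5 exons and 841 bases between 97386637 and 97391752, begins 15031 bases downstream of the start of Alg8-201, and ends 433 bases before its end. It contains 676 of the 1578 coding bases (42.8%), from exon 9 of Alg8-201 onward, and lacks the annotated start codon. All 4 introns of Alg8-204 are also introns of Alg8-201, so the 165 intronic bases are the whole exonic difference that Alg8-204 adds.

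Nearly the whole of the Alg8 transcript pool was covered by these listed isoforms. In the authors' deposited table Alg8-201 had a mean abundance of 16.4 TPM in vehicle against 2.06 TPM with BMP2, where TPM is scaled for transcript length and library total. Alg8-204 had 4.17 TPM in vehicle and is listed at 0 in BMP2 (authors' deposited table). The usage difference, BMP2 minus vehicle, was 22.4 percentage points for Alg8-201 with q = 1.77e-05, and -19.3 points for Alg8-204 with q = 7.48e-07, both from the authors' deposited table. Both isoforms thus had a lower mean abundance in BMP2, 7.95-fold lower for Alg8-201, and the gain of Alg8-201 was a gain in share only. The other Alg8 isoforms made up the remaining 4.8% in vehicle and 1.7% in BMP2.

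The level of a gene in a condition was derived as the summed mean TPM of its listed isoforms over their summed usage. For Alg8 this gave 21.6 TPM in vehicle against 2.10 TPM with BMP2, a log2 ratio of -3.36. In vehicle Alg8-201 and Alg8-204 taken singly each gave 21.6 TPM. Usage is a share of the gene's abundance, so this likeness follows from the definition, apart from averaging and rounding. In BMP2 the gene level rests on Alg8-201 alone. At a gene level of 2.10 TPM in BMP2, the vehicle share of Alg8-204 would be 0.405 TPM, and the counting error of the listed 0 is unknown because depth is unknown. In bulk RNA, fewer cells that express a gene and less of its RNA per cell cannot be told apart.

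**Figure D2:**
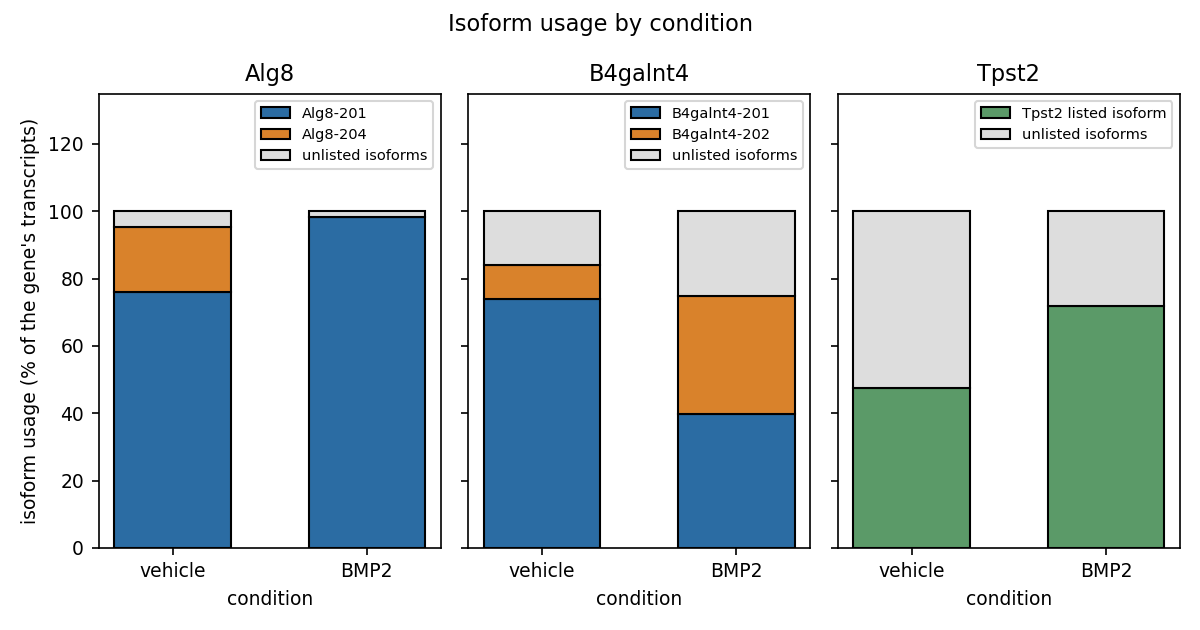
Isoform usage in percent of the gene's transcripts (y axis) in vehicle and BMP2 (x axis) for Alg8, B4galnt4 and Tpst2, as the authors' value per condition with no error bars, and the remainder to 100% in grey. Alg8-204 (orange) goes from 19.3% to a listed 0, while B4galnt4-202 (orange) goes from 10.2% to 35.0%.

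B4galnt4 (ENSMUSG00000055629.6) lies on the same chromosome from 141061104 to 141072400, plus strand, GRCm38. It has 5 annotated transcripts, 2 of them protein-coding and 3 of the retained-intron class. The other protein-coding transcript is not listed, so its usage was not analysed here. B4galnt4-201 has 20 exons, 3556 bases and 3102 coding bases. B4galnt4-202 has 16 exons and 3076 bases, begins 3390 bases downstream, inside exon 4 of B4galnt4-201, and has the same end. It holds 2717 of the 3102 coding bases (87.6%) and lacks the annotated start codon. All 15 introns of B4galnt4-202 are among the 19 of B4galnt4-201. The retained intron is number 5 of B4galnt4-201, from 141064732 to 141064806.

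By the means per condition, the abundance of B4galnt4-201 was 4.12-fold lower in BMP2 and that of B4galnt4-202 was 1.51-fold higher. B4galnt4-201 had 10.7 TPM in vehicle against 2.59 TPM with BMP2, and B4galnt4-202 had 1.51 against 2.27 TPM (authors' deposited table). In vehicle B4galnt4-201 was thus far above B4galnt4-202, and in BMP2 they were close, at 39.9% and 35.0% usage (authors' deposited table). The usage difference was -33.9 points for B4galnt4-201 with q = 0.00121 and 24.8 points for B4galnt4-202 with q = 0.0150, both from the authors' deposited table. Whether these abundances differed beyond the spread between libraries was not tested. The implied gene level was 14.5 TPM in vehicle against 6.49 TPM with BMP2, a log2 ratio of -1.16, and unlisted isoforms made up 16.0% and 25.1%. From B4galnt4-201 alone the vehicle level was 14.5 TPM and from B4galnt4-202 alone 14.8 TPM, and in BMP2 these were 6.49 and 6.50 TPM. This likeness too follows from how usage is defined and is not separate evidence for the level.

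How far reads can tell these isoforms apart differed between the genes. Of the 811 distinct windows of 31 bases in Alg8-204, 164 (20.2%) occur in no other annotated transcript, and Alg8-201 has 1028 such windows of 2009. B4galnt4-202 has none of its own among 3046. Its 103 windows absent from B4galnt4-201 all occur in B4galnt4-203 as well, an unlisted transcript of B4galnt4 that retains the same intron. B4galnt4-201 has 289 windows of its own among 3526. The value for B4galnt4-202 is therefore uncertain, since it depends on how reads over the shared intron were divided with B4galnt4-203. Of the 583 windows of B4galnt4-201 absent from B4galnt4-202, 294 also occur in B4galnt4-203. The value for B4galnt4-201 thus depends in part on how reads were divided with B4galnt4-203 too. No window of these 4 isoforms occurs in another gene, and their exons share 0 bases with exons of other genes on either strand. All these counts are for GENCODE M21. The annotation release behind the TPM values is unknown and holds a Tpst2 isoform that M21 lacks, so windows found in a single transcript here may be shared there.

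**Figure D3:**
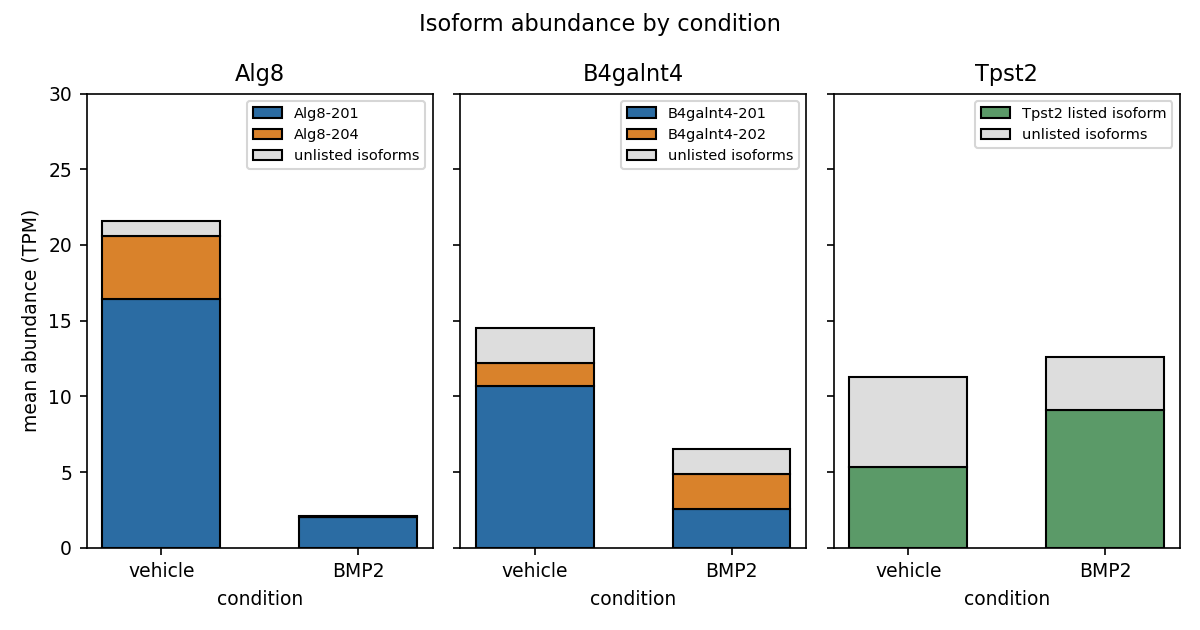
Mean abundance in TPM (y axis, from 0) by isoform in vehicle and BMP2 (x axis), stacked to the implied gene level, with unlisted isoforms in grey and no error bars since only means per condition were used. The stack stands at 21.6 and 2.10 TPM for Alg8, 14.5 and 6.49 TPM for B4galnt4, and 11.2 and 12.6 TPM for Tpst2.

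Tpst2 (ENSMUSG00000029344.16) lies on chromosome 5 from 112276691 to 112315361, plus strand, GRCm38. It has 7 annotated transcripts, of which 4 are protein-coding and 2 are of the retained-intron class. Its listed isoform, ENSMUST00000239473.2, has no match among them, so its exons and class are not described here. That isoform had 5.33 TPM in vehicle against 9.08 TPM with BMP2 (authors' deposited table). Its usage difference was 24.6 points with q = 0.0236, the highest q of the 5 isoforms in the authors' deposited table. It is the single listed isoform of Tpst2, and which isoforms lost the usage it gained was not analysed here. Together the unlisted isoforms made up 52.6% in vehicle and 28.0% in BMP2, which is 5.92 and 3.53 TPM by the implied level. The gene level was 11.2 TPM in vehicle against 12.6 TPM with BMP2, a log2 ratio of 0.17.

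The log2 ratio of an isoform's abundance was split into a usage part and a level part, which shows how the members differ. The usage part is the log2 ratio of the isoform's usage, and the level part is what remains. The 2 parts thus add up by construction, and the level part is the gene's level ratio as implied by that isoform alone. It can differ slightly between isoforms of a gene. For Alg8-201 the parts were -3.36 for level and 0.37 for usage, giving -2.99, so the level part was the larger. For B4galnt4-201 both parts were negative, -1.16 for level and -0.89 for usage, giving -2.04. In B4galnt4-202 the parts had opposite signs, -1.19 for level and 1.78 for usage, and the abundance ratio was 0.59. For the Tpst2 isoform the usage part was 0.60 and the level part 0.17, giving 0.77. Alg8-204 has no such ratio, because it is listed at 0 in BMP2.

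**Figure D4:**
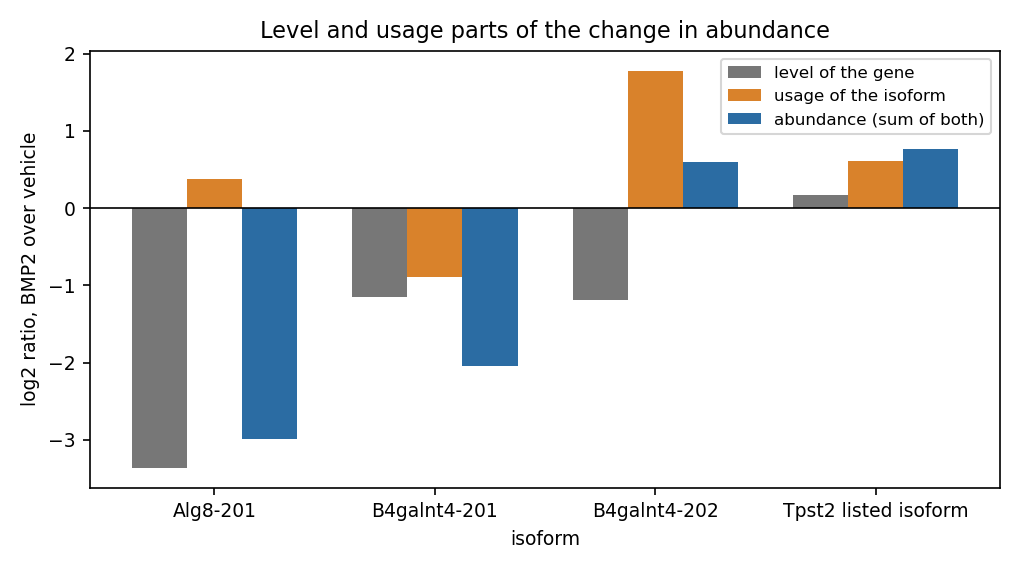
Log2 ratio of BMP2 over vehicle (y axis) for 4 isoforms (x axis). The abundance (blue) is split into the usage of the isoform (orange) and the remainder, the level of the gene implied by that isoform (grey). The level part is -3.36 for Alg8-201, and the usage part is 1.78 for B4galnt4-202.

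By implied level the genes stood in one order in vehicle and in the reverse order in BMP2. In vehicle Alg8 was highest at 21.6 TPM, then B4galnt4 at 14.5 TPM and Tpst2 at 11.2 TPM, and in BMP2 Tpst2 was highest at 12.6 TPM, then B4galnt4 at 6.49 TPM and Alg8 at 2.10 TPM. Whether neighbours in this order differ beyond the spread of libraries was not tested. A level over 2-fold lower in BMP2 was found for 2 of the 3 genes, Alg8 and B4galnt4, beside 31.8% of the 195 genes with an implied level, whose median log2 ratio was -0.12. Counted from the lowest ratio, Alg8 was number 10 of 195, B4galnt4 number 53 and Tpst2 number 117. The gene nearest to each member by this ratio, over the pair of conditions, was Pla2g4a for Alg8 with -3.42, Srsf3 for B4galnt4 with -1.18 and Rcor3 for Tpst2 with 0.16. With so few conditions this likeness is only one of size.

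All 5 isoforms have a q under 0.05 and a usage difference over 10 points, as do 100% of the 302 isoforms in the authors' deposited table, so the count says nothing about these genes. A q under 0.01 was given to 3 of the 5, against 73.5% of the 302. These 3 are both Alg8 isoforms and B4galnt4-201. A difference over 20 points was found for 4 of the 5, against 50.7% of the 302, and the exception was Alg8-204. Both genes with more than 1 listed isoform, Alg8 and B4galnt4, showed opposite changes, as did all 90 of the table's genes with more than 1 listed isoform. Fractions of a gene sum to 1, which favours this.

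**Figure D5:**
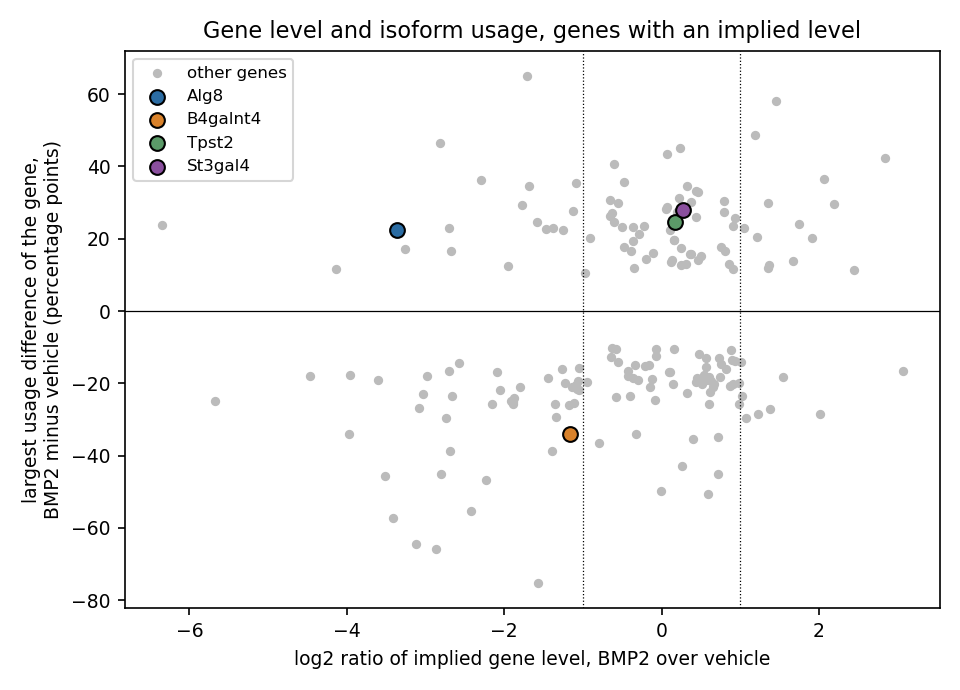
Largest usage difference of each of 195 genes in percentage points (y axis) against the log2 ratio of its implied level, BMP2 over vehicle (x axis), with dotted lines at 2-fold. Alg8 lies at -3.36 and 22.4 points, B4galnt4 at -1.16 and -33.9 points, and Tpst2 at 0.17 and 24.6 points. St3gal4 is also marked, at 0.27 and 27.9 points, and some unmarked genes lie closer to Tpst2 than St3gal4 does.

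Of 123 genes in 6 lists for glycosylation and sulfation, 4 have an isoform in the table, namely the 3 members and St3gal4. The 3 members were put in the lists with their listing already known. The share of all expressed genes that are listed is unknown, so this count does not show whether such genes are listed often or seldom. The lists gave Alg8 among 23 genes of N-glycan precursor assembly and B4galnt4 among 6 genes of N-acetylgalactosamine transfer or otherwise related to LacdiNAc. Tpst2 was among 24 sulfation genes and St3gal4 among 23 genes of Golgi N-glycan processing. The table lists no isoform of the 23 genes for oligosaccharide transfer and glycan quality control or of the 24 for mucin-type O-glycosylation, and their usage was not analysed here. St3gal4 encodes a sialyltransferase that caps galactose on glycans. Usage of its isoform St3gal4-203 rose from 10.0% to 38.0% with q = 4.18e-05 (authors' deposited table). St3gal4-203 had 0.769 TPM in vehicle against 3.53 TPM with BMP2 (authors' deposited table), and the implied level of St3gal4 was 7.69 and 9.29 TPM. It is a protein-coding model of 613 bases in 7 exons whose end was not found, on chromosome 9 from 35053429 to 35099071, minus strand, GRCm38, and 28 of its 583 windows are its own. Like Tpst2, St3gal4 thus had a usage difference above 20 points with a level ratio under 2-fold. A difference over 20 points in either direction was found for 50.7% of the 302 listed isoforms. Genes outside the lists also combined it with a level ratio under 2-fold, so this likeness does not set Tpst2 and St3gal4 apart. No isoform of 43 marker genes for intestinal, mesenchymal, immune and endothelial cells is listed, so the labelled tissue was not checked here.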

How the data were processed

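Per the submitters' processing notes, kallisto 0.46.1 and the mm39 build were used. For the annotation release, the statistical test, the filters and the strand, the sources used here give nothing. The deposited table, whose condition names carry the same batch label, gives isoform usage as a fraction of the gene's abundance, its q-value, a rank score and mean TPM, all computed by the authors. The planned test across libraries needed values per library, so the authors' q-values were used. Usage is printed as 100 times the fraction.

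Computed here, with Python 3.11.15, pandas 2.3.3 and numpy 2.4.6, were implied gene levels, differences and annotation matches. Of the 5 isoforms, 4 matched GENCODE M21 (GRCm38) by stable identifier, each with a version 1 step higher in the table, so exon ends may differ slightly. No coordinate was converted. The windows of 31 bases were compared on both strands with every GENCODE M21 transcript. Named genes are the members, genes of the lists in the table and the gene nearest to each member by level ratio. Members and lists were chosen with earlier results of these data known. Alternatives were other thresholds and other ways to derive the level.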

Additional observations from a re-analysis of the deposited data

How the results depend on the processing

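Usage of 5 member isoforms passed a q of 0.05 and a difference of 0.1 in the authors' deposited table. With a q under 0.01 the count was 3, without B4galnt4-202 and the Tpst2 isoform. Where 5 TPM or more was required of the gene in each condition it was also 3, since Alg8 lay below that level in BMP2. It was 4 with a difference over 0.2, and 5 with differences recomputed from the fractions. For the lists 3 of 4 genes had a q under 0.01. The log2 level ratio of Tpst2 was 0.77 when TPM was summed over its listed isoform without division by usage, because that sum leaves out the unlisted isoforms. Alg8 ranged from -2.87 (pseudocount of 1 TPM) to -3.36, and B4galnt4 from -1.05 (pseudocount of 1 TPM) to -1.32 (no division by usage). Each was over 2-fold lower under every alternative run, of which those from a single isoform nearly repeat the level by definition. Alg8-204 alone gave no ratio. No paired analysis was possible because the table holds no values per library, and leaving out a replicate was not run for the same reason. Depth is unknown, so the counting error of the listed 0 of Alg8-204 and of the low BMP2 values is unknown too.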
